A study of Arabidopsis thaliana with 12 samples.

Results

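Genes for the proteins of the cytosolic ribosome were followed in roots of wild type Arabidopsis thaliana seedlings, with the 3 genes for ribosomal protein L30 (RPL30) described most closely. The set was a list of 57 locus identifiers from 25 protein families of both ribosomal subunits, of which 56 were among the 20814 genes analysed here; AT1G23290, an RPL27a gene, was not analysed here. All 56 passed the filter on low values. AT1G36240, 1 of the RPL30 genes, was chosen by its low values in the libraries treated with BiAux, so those values are a description and carry no test.

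PolyA RNA was sequenced from roots of seedlings that grew for 4 days and then spent 3 days on one of 4 media. The BiAux+IAA group received 5 µM BiAux and 10 nM IAA, the BiAux group 5 µM BiAux, the IAA group 10 nM IAA, and the mock group neither compound, with 3 libraries in each group. IAA is the main natural auxin, and BiAux is a synthesised bis-methyl auxin bearing an N-glucoside. The groups were taken from the sample titles. The treatment field of the sample records names another treatment for 7 of the 12 libraries, so libraries are named by title and every direction below rests on the titles. Nothing stated that replicates were separate cultures, so p-values measure only the spread between these samples. The 12 libraries had nearly equal totals, from 32413978 to 32720463 normalized counts. All 8 root marker genes were present in every library. Of 6 shoot genes, 3 were in the table and none was at 0. The libraries mock 1 and BiAux 1 deviated together from their groups, with r = 0.78 across all tested genes.

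The cytosolic ribosome reads mRNA on its small subunit and forms peptide bonds on its large subunit, and each subunit is a shell of proteins around ribosomal RNA. In Arabidopsis each of these proteins is encoded by a small family of paralogs whose products can fill the same position. Transcripts of ribosomal protein genes are abundant in growing and dividing cells such as those of the root tip, and several mutants in single paralogs have pointed leaves or altered auxin responses. RPL30 is a small protein of the large subunit. In budding yeast it also binds its own transcript and limits its splicing.

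The coding sequences of the 3 RPL30 genes show how far reads from them can be told apart, since a near-identical copy would blur the counts. In the TAIR10.1 assembly, AT1G36240 lies at chr1:13614890-13616233 on the plus strand with 5 coding exons, AT1G77940 at chr1:29303864-29305411 on the minus strand with 5, and AT3G18740 at chr3:6453303-6454018 on the plus strand with 2. Each has 339 coding bases and encodes 112 residues. The first 150 coding bases follow, 5′ to 3′ in the coding sense, from RefSeq, with capitals at the 34 positions where any of the 3 genes differs.
AT1G36240: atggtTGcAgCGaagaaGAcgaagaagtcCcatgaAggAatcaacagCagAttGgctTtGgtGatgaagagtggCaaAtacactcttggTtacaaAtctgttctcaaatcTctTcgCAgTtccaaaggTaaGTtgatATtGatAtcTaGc
AT1G77940: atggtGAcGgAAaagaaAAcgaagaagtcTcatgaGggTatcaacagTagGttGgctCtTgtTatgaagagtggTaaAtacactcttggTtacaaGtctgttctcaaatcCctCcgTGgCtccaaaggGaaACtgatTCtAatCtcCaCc
AT3G18740: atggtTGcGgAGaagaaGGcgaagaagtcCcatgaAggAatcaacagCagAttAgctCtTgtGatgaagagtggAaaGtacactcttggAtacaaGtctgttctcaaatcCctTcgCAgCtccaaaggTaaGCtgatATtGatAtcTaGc
Over the whole coding sequence, 75 of 339 positions differed in at least 1 gene. AT1G36240 was 89.1% identical to AT3G18740, with a longest identical run of 34 bases, and 81.7% identical to AT1G77940, with a longest run of 20 bases. AT1G77940 and AT3G18740 were 84.1% identical, with a longest run of 23 bases. No run reached a read length of 100 bases, so a read of that length within the coding sequence covers differing positions.

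AT1G36240 was low in all 6 libraries that had received BiAux and high in the 6 that had not. It had 388, 221 and 279 normalized counts in BiAux+IAA 1, 2 and 3. It had 250, 338 and 317 in BiAux 1, 2 and 3, against 1748, 1709 and 2076 in IAA 1, 2 and 3 and 2205, 2597 and 2348 in mock 1, 2 and 3. The 6 values with BiAux and the 6 without did not overlap, and the lowest value without BiAux was 4.4 times the highest value with it. The means were 296 ± 84.8 in BiAux+IAA libraries, 302 ± 46 in BiAux libraries, 1844 ± 202 in IAA libraries and 2383 ± 198 in mock libraries (SD, n = 3 each). As a share of the mock mean, AT1G36240 stood at 12.4% in BiAux+IAA libraries, 12.7% in BiAux libraries and 77.4% in IAA libraries. The log2 fold changes, computed on log2(value + 16.3), were -2.97 for BiAux+IAA against mock, -2.92 for BiAux against mock, -2.60 for BiAux+IAA against IAA and -0.37 for IAA against mock. The comparisons with mock share the 3 mock libraries. In root RNA, fewer cells that express a gene and less of its RNA per cell cannot be told apart.

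The other RPL30 genes did not follow AT1G36240. AT1G77940 had 14724, 12467 and 13224 normalized counts in BiAux+IAA libraries and 12970, 14471 and 14085 in BiAux libraries, against 10390, 10325 and 13605 in IAA libraries and 12997, 16281 and 15233 in mock libraries. Its BiAux+IAA and BiAux values overlapped those of mock, and IAA 1 and IAA 2 were its lowest libraries. AT3G18740 had 6737, 5752 and 6507 normalized counts in BiAux+IAA libraries and 6105, 6850 and 6255 in BiAux libraries, against 4924, 4952 and 6251 in IAA libraries and 6648, 7444 and 7433 in mock libraries. Here too IAA 1 and IAA 2 were lowest. The log2 fold changes of AT1G77940 were -0.14 for BiAux+IAA against mock and -0.10 for BiAux against mock, and those of AT3G18740 were -0.18 for BiAux+IAA against mock and -0.16 for BiAux against mock. For IAA against mock they were -0.38 for AT1G77940 and -0.42 for AT3G18740, close to the -0.37 of AT1G36240.

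**Figure D1:**
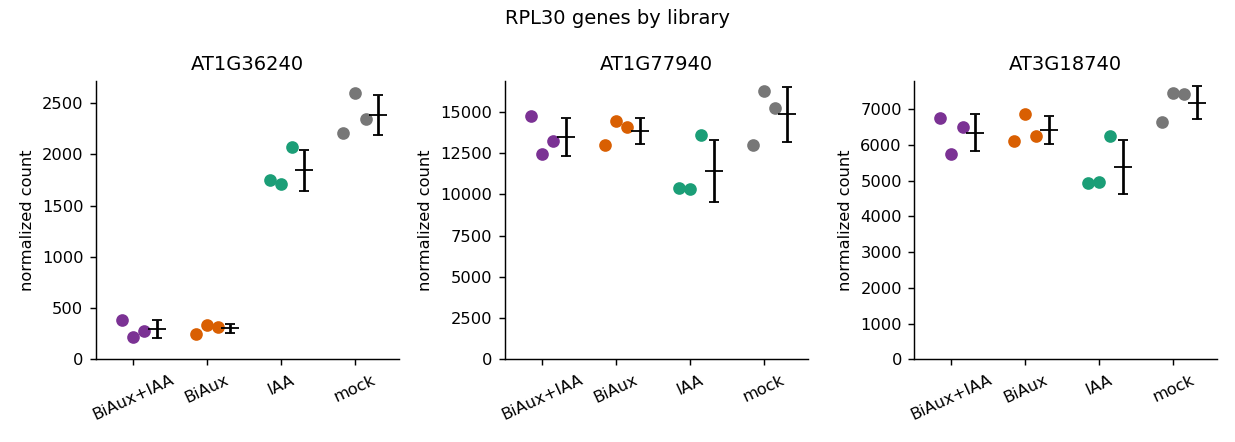
Normalized counts of the 3 RPL30 genes, 1 panel a gene, with a point for each library of the BiAux+IAA, BiAux, IAA and mock groups and the mean ± SD (n = 3) beside them; each axis starts at 0. AT1G36240 sits between 221 and 388 in the 6 libraries with BiAux and at 1709 or more in the others, whereas the other 2 genes show no such gap.

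The share of RPL30 transcripts contributed by each gene was taken per coding length, which is equal for the 3 genes. AT1G36240 contributed 1.46% ± 0.294 in BiAux+IAA libraries, 1.46% ± 0.147 in BiAux libraries, 9.92% ± 0.407 in IAA libraries and 9.78% ± 0.36 in mock libraries (SD, n = 3 each). Its share was thus the minor one in every library, and in the 6 libraries without BiAux it stayed between 9.39% and 10.2%. AT1G77940, the main RPL30 gene, held 67% ± 0.823 in BiAux+IAA libraries, 67.4% ± 0.721 in BiAux libraries, 61.2% ± 0.691 in IAA libraries and 60.7% ± 1.19 in mock libraries. That share was higher where AT1G36240 was low, while the ratio of AT1G77940 to AT3G18740 ranged from 2.03 to 2.19 in BiAux+IAA libraries, from 2.11 to 2.25 in BiAux libraries, from 2.09 to 2.18 in IAA libraries and from 1.96 to 2.19 in mock libraries. The 3 genes together gave 18440 to 21849 normalized counts in BiAux+IAA libraries, 19325 to 21659 in BiAux libraries, 16986 to 21932 in IAA libraries and 21850 to 26322 in mock libraries. Per kb of coding sequence, AT1G36240 ranked 46th of the 56 genes in mock libraries, and 54th in both BiAux+IAA and BiAux libraries.

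No other family showed a shift of paralog shares of that size. The share of each paralog in its family, per coding length, was computed for 50 genes of 21 further families. A family here means its listed genes only. Some unlisted genes carry the same product name as listed ones and were not counted, among them AT5G45775 (as in RPL11), AT1G80750 (RPL7) and AT3G51190 (RPL8). The share of AT1G36240 shifted by -8.32 percentage points in BiAux against mock libraries, where the largest shift among the 50 was -2.17 points, for AT4G18730 of the RPL11 family, and the median absolute shift was 0.44 points. In BiAux+IAA against mock libraries its shift was -8.33 points. The largest shift among the 50 was 2.97 points, for AT5G64140 (RPS28), with a median of 0.97. In BiAux+IAA against IAA libraries it was -8.47 points, and the largest other shift was -4.46 points for AT1G66580 (SAG24), an RPL10 gene, with a median of 0.78. In IAA against mock libraries the share of AT1G36240 moved by 0.14 points, and the largest other shift was -2.56 points for AT1G33140 of the RPL9 family. Measured against the mean change of its family partners, AT1G36240 stood at -2.81 on the log2 scale in BiAux+IAA against mock and at -2.79 in BiAux against mock. The 50 other paralogs ranged from -0.44 to 0.44 in the first comparison and from -0.13 to 0.11 in the second.

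**Figure D2:**
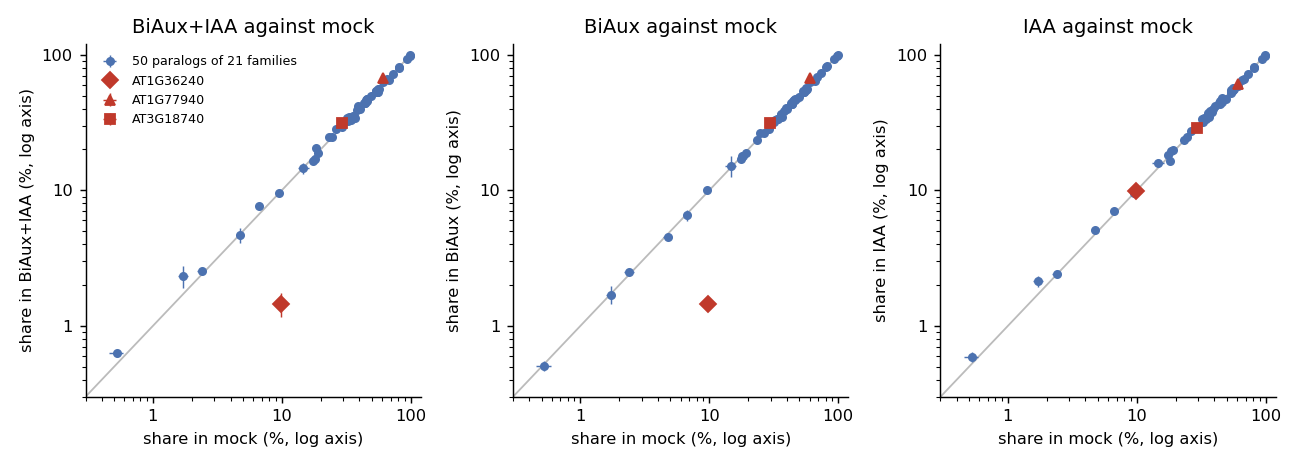
Mean share of each paralog in its family, per coding length, in BiAux+IAA, BiAux and IAA libraries (vertical, percent, log axis) against mock libraries (horizontal, percent, log axis), with SD bars (n = 3) and a grey line of equal shares; circles are 50 paralogs of 21 families and red symbols the RPL30 genes. AT1G36240 lies at 1.46% in both groups with BiAux against 9.78% in mock and on the line for IAA at 9.92%.

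Averaged over the 12 libraries and per kb of coding sequence, the levels of the 56 genes had a median of 15926 normalized counts per kb. AT1G36240 averaged 3559 per kb. The families differed widely in how evenly their paralogs were used. The shares below are the lowest and the highest over the 12 libraries, and are shares among the listed genes of a family only. In some families 1 gene supplied nearly all transcripts. AT5G15200 held 97.1% to 98.6% of RPS9 beside AT5G39850, at 1.4% to 2.85%. AT1G43170 (RP1) held 92% to 94.2% of RPL3, a protein that in yeast reaches towards the peptidyl transferase centre, beside AT1G61580 (RPL3B), at 5.81% to 8.05%. The share of AT5G39850 varied most in relative terms apart from that of AT1G36240. A main paralog with a weaker partner was seen for RPL14, with AT4G27090 at 78.7% to 83.4% and AT2G20450 at 16.6% to 21.3%. The listed RPL8 genes were similar, with AT2G18020 (EMB2296) at 80.2% to 82.3% and AT4G36130 at 17.7% to 19.8%. RPL23AA (AT2G39460) held 65.3% to 69% and RPL23AB (AT3G55280) 31% to 34.7% of RPL23a.

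Other proteins drew on their genes more equally. The RPS6 proteins, which are phosphorylated by S6 kinase under control of TOR, came from AT5G10360 (EMB3010), at 51.8% to 55.2%, and AT4G31700 (RPS6), at 44.8% to 48.2%. ATL5 (AT3G25520) held 53.1% to 55.2% and RPL5B (AT5G39740) 44.8% to 46.9% of RPL5, which binds the 5S ribosomal RNA. STV1 (AT3G53020), an RPL24 gene needed for reinitiation of translation on mRNAs with upstream open reading frames, held 55.5% to 56.9% against 43.1% to 44.5% for RPL24A (AT2G36620). Both subunits thus held families of this kind. RPL4 was split between AT3G09630, at 51.8% to 55.7%, and AT5G02870, and RPS13 between RPS13A (AT4G00100), at 51.7% to 55.4%, and AT3G60770. In RPS21, AT5G27700 held 54.4% to 58.3% and AT3G53890 the rest, and in RPS3 the shares of AT2G31610, AT3G53870 and AT5G35530 all lay between 31.2% and 35.7%.

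In the remaining families with 3 listed genes a clear minor paralog was present among them. SAC52 (AT1G14320) led RPL10 with 58.1% to 64.5% and RPL10B (AT1G26910) held 2.21% to 2.61%. Among the listed genes of RPL11, the other protein that binds 5S ribosomal RNA, AT4G18730 (RPL16B) led with 62.3% to 67.2%. AT2G42740 (RPL16A) held 9.01% to 10.7%. AT5G03850 led RPS28 with 52.7% to 56.9%, and AT3G10090 held 4.13% to 5.3%. In each of these families the smallest gene lay below every value of the others. Among the listed RPL7 genes, AT2G01250 led with 51% to 57.1% and AT3G13580 was lowest with 15.7% to 18.6%. RPS10B (AT5G41520) led RPS10 with 40.6% to 46.9% and AT4G25740 was lowest with 16.3% to 19%. RPS18C (AT4G09800) led RPS18 with 38.5% to 43%, above PFL (AT1G22780), whose mutant has pointed leaves, and AT1G34030 was lowest with 22.3% to 24.8%. In RPL9, AT1G33140 (PGY2), known for leaf patterning, led with 45.6% to 52.8% and AT4G10450 was lowest with 12.6% to 17.7%. AT1G33140 and AT1G33120 were 99.1% identical in coding sequence with an identical run of 458 bases, and AT2G42740 and AT3G58700 of RPL11 shared a run of 113 bases, so the split of reads within these pairs is uncertain.

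As a group, the 55 ribosomal protein genes other than AT1G36240 were highest in mock libraries and lowest in IAA libraries. They took up 1.68%, 1.5% and 1.61% of all normalized counts in BiAux+IAA 1, 2 and 3, and 1.45%, 1.73% and 1.69% in BiAux 1, 2 and 3. In IAA 1, 2 and 3 they took up 1.39%, 1.33% and 1.62%, against 1.55%, 1.91% and 1.84% in mock 1, 2 and 3. IAA 1 and IAA 2 were the lowest of the 12 libraries and mock 2 and mock 3 the highest, while IAA 3 and mock 1 lay among the BiAux and BiAux+IAA libraries, so the groups overlapped. The mean log2 deviation from each gene's own average over the 12 libraries was 0.01 ± 0.08 in BiAux+IAA libraries, 0.01 ± 0.14 in BiAux libraries, -0.16 ± 0.16 in IAA libraries and 0.14 ± 0.16 in mock libraries (SD, n = 3 each). A further 146 genes annotated as cytosolic ribosomal proteins had mean deviations of -0.01 ± 0.08 in BiAux+IAA, 0.01 ± 0.13 in BiAux, -0.16 ± 0.14 in IAA and 0.15 ± 0.12 in mock libraries. Relative to the 55 genes, AT1G36240 stood at -2.85 ± 0.31 on the log2 scale in BiAux+IAA libraries, -2.80 ± 0.08 in BiAux libraries and -0.08 ± 0.01 in IAA libraries, with the mock mean set to 0 and an SD of 0.08 among mock libraries.

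**Figure D3:**
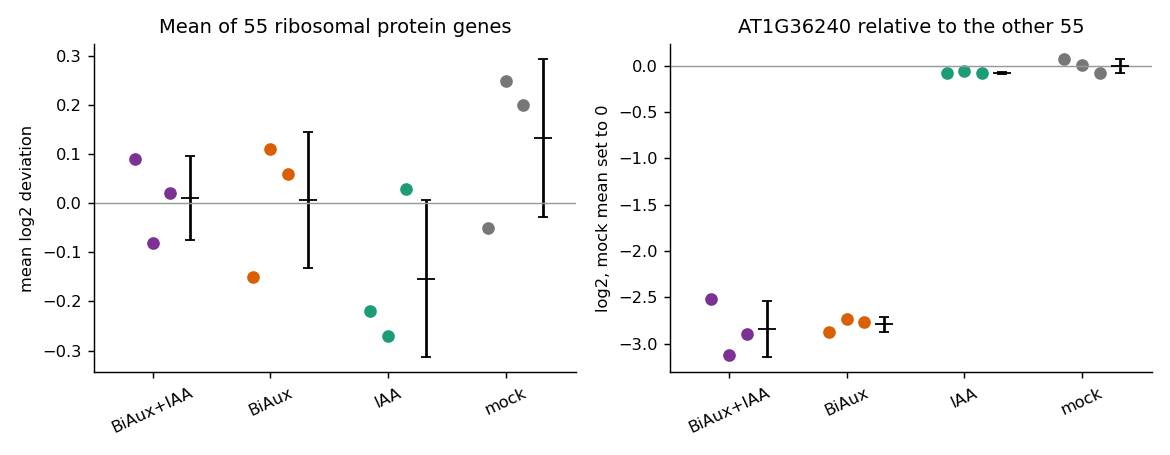
Left, the mean log2 deviation of the 55 ribosomal protein genes other than AT1G36240 from each gene's average over 12 libraries; right, the log2 level of AT1G36240 relative to those 55 genes with the mock mean set to 0. Points are libraries and bars the mean ± SD (n = 3) of each group; the left values run from -0.27 in IAA 2 to 0.25 in mock 2 with overlapping groups, and on the right the 6 libraries with BiAux lie at -2.52 or below and the 6 without at -0.08 or above.

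The 55 genes moved together across the libraries. The Pearson correlation of a gene with the mean of the other genes over the 12 libraries had a median of 0.92, and was at least 0.9 for 37 of the 55 genes, with the highest value of 0.98 for AT5G10360 (RPS6 family). It was 0.08 for AT1G36240. The lowest among the 55 was 0.55 for AT1G61580, the minor RPL3 gene. These correlations are a description, since the genes share their libraries and scaling. The ratio of the highest to the lowest of the 12 values had a median of 1.47 over the 55 genes, and ranged from 1.33 for AT1G66580 to 1.85 for AT5G39850. AT5G39850 had 435, 482 and 398 normalized counts in BiAux+IAA libraries and 261, 385 and 380 in BiAux libraries, against 311, 288 and 422 in IAA libraries and 325, 404 and 408 in mock libraries.

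The comparison of BiAux with mock asked what the compound alone changed. A gene was called when limma gave a p under 0.05 and a log2 fold change past 0.5 in either direction, with p unadjusted. The study's methods give these limits for its own edgeR test and also name a multiple-test corrected p, so adjusted values stand beside the calls here. Of the 56 ribosomal protein genes 1 was called, AT1G36240, on which nothing can be read because it was chosen by this contrast, and of all 19338 genes tested 1.59% were called. The other 55 genes all had fold changes below 0, from -0.23 for AT4G18730 to -0.02 for AT5G02870, with a median of -0.13 against -0.04 for all genes tested. Of the 55, 2 had an unadjusted p under 0.05, AT1G33140 (-0.21 ± 0.09, SE, adjusted p = 1) and the RPS18 gene AT1G34030 (-0.18 ± 0.07, SE, adjusted p = 1), while 2.68% of all tested genes had such a p and were lower. With the replicate number as a block, 20 of the 55 had a p under 0.05 and were lower, and 11.1% of all tested genes did in the same fit. None of the 55 had an adjusted p under 0.05 there. Only replicate 1 was clearly matched by number (r = 0.78 across genes), as BiAux 2 correlated more with mock 3 (r = 0.62) than with mock 2 (r = 0.41). The mean change of the 55 genes was -0.13, and it was -0.05 without BiAux 1, -0.07 without mock 2 and -0.22 without mock 1, so its size rested on single libraries. Without mock 1, 10 of the 55 had an unadjusted p under 0.05, against 7.36% of all tested genes lower by that rule, and without any other single library 0 or 1 did. AT4G18730 had 4531, 5575 and 5498 normalized counts in BiAux libraries, against 5583, 6566 and 6143 in mock libraries, a difference that did not pass (adjusted p = 1).

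The comparison of IAA with mock asked what the natural auxin changed. All 56 genes had fold changes below 0, with a median of -0.29 against 0.00 for all genes tested. Of the 56 genes, 31 had an unadjusted p under 0.05 and were lower, against 8.86% of all genes tested; AT1G36240 was 1 of the 31. None of the 56 had an adjusted p under 0.05 in limma, and 8 did when all 12 libraries were fitted together, against 3.18% of all tested genes in that fit. By the call rule 1 of 56 passed, against 3.29% of all tested genes. This was AT5G27700, an RPS21 gene, with 4698, 4610 and 5885 normalized counts in IAA libraries, against 6845, 7611 and 7052 in mock libraries. Every IAA library lay below every mock library, with IAA 3 nearest to mock (log2 fold change -0.51 ± 0.11, SE, adjusted p = 0.0964). The call was lost without mock 2, IAA 1 or IAA 2, where the fold change was between -0.46 and -0.44.

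Which ribosomal protein genes were called between IAA and mock depended on IAA 3 and mock 1. Without IAA 3, 9 of the 56 genes were called, all lower, among them AT5G27700 and its partner AT3G53890, AT1G33140, AT5G15200 and the RPS18 genes AT1G22780 and AT1G34030, against 3.37% of all tested genes called lower in that fit. Without mock 1, 3 were called, against 3.13% of all tested genes called lower, and 37 of the 56 had an adjusted p under 0.05 and were lower, against 4.92% of all tested genes. The number with an unadjusted p under 0.05 was 54 without mock 1, where 17% of all tested genes were lower by that rule, and 40 without IAA 3, where 9.95% were. It was 16 without mock 3, 11 without mock 2, 11 without IAA 1 and 10 without IAA 2, where 4.06% to 7.56% were. AT5G15200, the main RPS9 gene, had 15023, 14302 and 17583 normalized counts in IAA libraries, against 19578, 24542 and 21409 in mock libraries, with no overlap (log2 fold change -0.48 ± 0.12, SE, adjusted p = 0.128). Its minor partner AT5G39850 stood at -0.16 ± 0.16 (SE, adjusted p = 0.67). A still smaller change was that of another minor paralog, the RPL3 gene AT1G61580. It had 1568, 1534 and 1662 normalized counts in IAA libraries, against 1454, 1868 and 1742 in mock libraries, with a fold change of -0.08 and overlapping groups. Genes of the small subunit had a median of -0.30 over 25 genes, of which 16 had an unadjusted p under 0.05. Those of the large subunit other than AT1G36240 had a median of -0.26 over 30 genes, of which 14 did.

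Other measures for IAA against mock are given beside the difference, whether or not they moved with it. The 146 further ribosomal protein genes, of which 141 were tested, had a median of -0.32, with 7 called lower and none called higher, against 2% of all tested genes called lower. Tested genes other than those for ribosomal proteins with a coding sequence up to 1224 bases, the length of the longest of the 56, had a median of -0.07, and longer ones had a median of 0.09. Of 11 translation factor genes, none was called, and the median was -0.21. They ranged from -0.37 for RACK1A, a scaffold protein on the small subunit, to -0.01 for LOS1. Of 19 genes for ribosome biogenesis and its control, none was called, and the median was 0.12, opposite in sign to that of the ribosomal protein genes. The 19 genes summed to 58454 to 67379 normalized counts in IAA libraries, against 45897 to 68068 in mock libraries. The lowest mock sum was that of mock 1, so the sign of this median rested on that library. NUC1, a nucleolin gene, had 13418, 12026 and 14262 normalized counts in IAA libraries, against 8140, 13700 and 13215 in mock libraries, where mock 1 stood apart. TOR, the kinase that couples nutrients to ribosome production, had 3597, 3335 and 3575 normalized counts in IAA libraries, against 1731, 3610 and 3296 in mock libraries, again with mock 1 low. The 4 dividing cell markers summed to 3001 to 3327 normalized counts in IAA libraries, against 2911 to 3346 in mock libraries. The part of transcript length in the difference was not tested.

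The comparison of BiAux+IAA with mock asked for the effect of both compounds. Of the 56 genes 1 was called, again AT1G36240, chosen by its values in these libraries, against 5.6% of all genes tested. The other 55 genes had a median of -0.14 against -0.01 for all genes tested, and 52 of them were below 0. Of the 55, 4 had an unadjusted p under 0.05 and were lower, while 8.13% of all tested genes were, and none had an adjusted p under 0.05. The lowest was AT1G66580 (-0.28 ± 0.10, SE, adjusted p = 0.242), an RPL10 gene, with 11584, 11112 and 11330 normalized counts in BiAux+IAA libraries, against 12738, 13872 and 14765 in mock libraries, with no overlap. Of the 3 genes above 0, the highest were the minor paralogs AT5G39850 (0.20 ± 0.13, SE, adjusted p = 0.613) and AT1G61580 (0.15 ± 0.11, SE, adjusted p = 0.689), and none of the 3 passed. The mean change of the 55 genes was -0.13, and it was -0.22 without mock 1, -0.07 without mock 2 and -0.08 without BiAux+IAA 2. Without mock 1, 31 of the 55 had an unadjusted p under 0.05, against 15.3% of all tested genes lower by that rule, and none an adjusted p under 0.05, and without any other single library 0 to 5 had an unadjusted p under 0.05. Of the 19 biogenesis genes 1 was called higher, NUC2, and 361 of all 19338 genes tested were. NUC2 had 132, 190 and 148 normalized counts in BiAux+IAA libraries, against 86, 102 and 126 in mock libraries. No biogenesis gene had an adjusted p under 0.05.

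The comparison of BiAux+IAA with IAA asked what BiAux changed when auxin was present. Of the 56 genes 1 was called, AT1G36240, against 3.4% of all genes tested. The other 55 had a median of 0.16 against -0.01 for all genes tested, and 53 of them were above 0. Of the 55, 16 had an unadjusted p under 0.05 and were higher, against 7.6% of all tested genes, and none had an adjusted p under 0.05. The highest was AT1G33140, with 6413, 5468 and 5517 normalized counts in BiAux+IAA libraries, against 3983, 4356 and 5191 in IAA libraries (0.37 ± 0.10, SE, adjusted p = 0.0722). The groups did not overlap, and IAA 3 lay nearest to the BiAux+IAA libraries. The lowest was AT1G66580, at -0.06 ± 0.07 (SE, adjusted p = 0.718). Without IAA 3 the mean change of the 55 genes was 0.26 in place of 0.17, 41 had an unadjusted p under 0.05, against 11.5% of all tested genes higher by that rule, and 8 an adjusted p under 0.05, against 1.5%. AT5G39850 was called there at 0.52, and 1.82% of all tested genes were called higher. Without IAA 2 the mean was 0.11, and 3 had an unadjusted p under 0.05. That number was 4 without IAA 1, 5 without BiAux+IAA 1, 26 without BiAux+IAA 2 and 7 without BiAux+IAA 3, and in these 5 fits 4.4% to 8.8% of all tested genes were higher by that rule. The 146 further genes had a median of 0.16 with none called, and the translation factor genes a median of 0.19 with none called. The 19 biogenesis genes had a median of -0.02 with none called. Of these, 3 had an unadjusted p under 0.05 and were lower, against 12.9% of all tested genes.

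**Figure D4:**
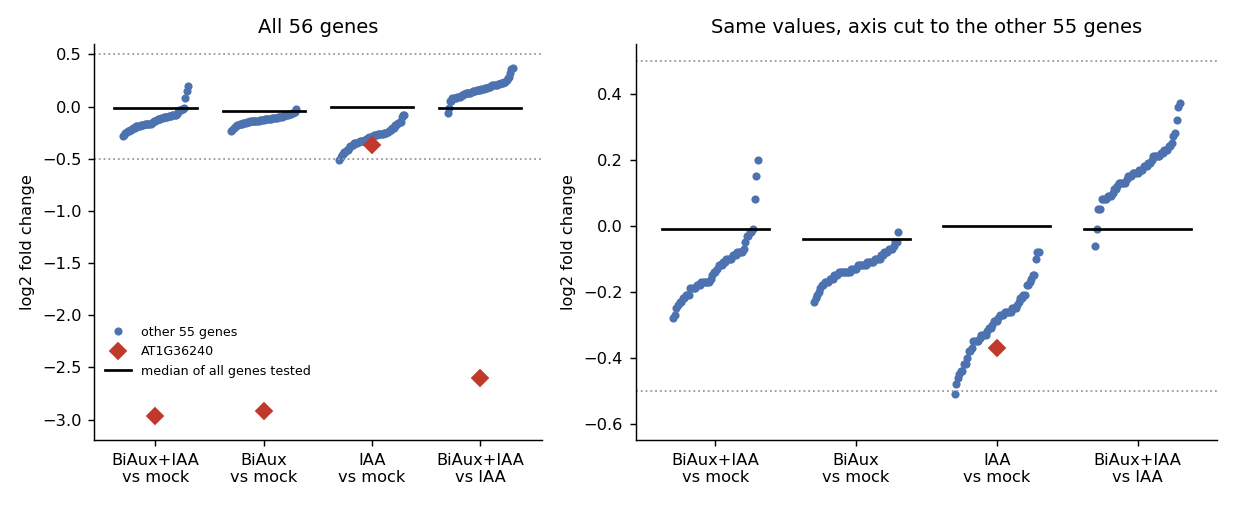
Log2 fold changes of the 56 ribosomal protein genes in the 4 comparisons, with the 55 genes other than AT1G36240 as circles in order of size, AT1G36240 as a red diamond and the median of all genes tested as a black bar; the right panel cuts the axis to the range of the 55 genes and dotted lines mark 0.5 and -0.5. The 55 genes lie between -0.51 and 0.37 in all 4 comparisons, AT1G36240 lies at -2.97, -2.92 and -2.60 where BiAux was added and among the others at -0.37 for IAA against mock.

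The change that BiAux made in the presence of IAA was set against the change it made alone, in 1 fit over the 12 libraries. This difference was above 0 for all 56 genes, with a median of 0.29 against 0.02 for all genes tested. It had an unadjusted p under 0.05 for 15 of the 56, against 4.11% of all genes tested in that direction, and an adjusted p under 0.05 for none. Without AT1G36240, the mean deviation was 0.01 in both BiAux+IAA and BiAux libraries, -0.16 in IAA libraries and 0.14 in mock libraries. The difference thus held the same gap as IAA against mock and is no separate result. It was not fitted with libraries left out, although that gap depended on IAA 3 and mock 1. The call rule was passed by 1 of the 56, AT1G33140 (0.58 ± 0.14, SE, adjusted p = 0.426), against 2.34% of all genes tested. It had 5571, 5536 and 4921 normalized counts in BiAux libraries, against 5901, 6325 and 6307 in mock libraries, so it was below mock with BiAux alone. Its reads cannot be separated from those of AT1G33120 over the run of 458 bases given above, and AT1G33120 stood at -0.17 for BiAux against mock and 0.21 for BiAux+IAA against IAA. For AT1G36240 the fold change with BiAux was -2.60 in the presence of IAA and -2.92 in its absence.

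Genes whose pattern over the 12 libraries was most like that of AT1G36240 were sought among 15225 genes averaging 5 CPM or more. The 5 with the highest Pearson correlation were SEN1 (AT4G35770, r = 0.94), AT1G76600 and AT4G33110 (r = 0.93 each), malate synthase MLS (AT5G03860, r = 0.92) and SNG1 (AT2G22990, r = 0.92), which makes sinapoylmalate. None of them is a ribosomal protein gene. SEN1, a gene induced by darkness and senescence, had 374 ± 56.2 normalized counts in BiAux+IAA libraries, 414 ± 42.8 in BiAux libraries, 864 ± 88.8 in IAA libraries and 887 ± 127 in mock libraries (SD, n = 3 each). The fold changes of these 5 genes for BiAux+IAA against mock lay between -1.21 and -0.38, smaller than that of AT1G36240. The 3 shoot genes in the table summed to 1175 to 1427 normalized counts in BiAux+IAA libraries, 948 to 1162 in BiAux libraries, 1105 to 1526 in IAA libraries and 1585 to 1669 in mock libraries. RBCS1A, the small subunit of Rubisco, had 461, 401 and 316 normalized counts in BiAux+IAA libraries and 250, 316 and 271 in BiAux libraries, against 508, 509 and 314 in IAA libraries and 540, 657 and 611 in mock libraries. RBCS1A was below every mock library in all 6 libraries with BiAux and in all 3 with IAA alone, and its fold change against mock was -1.07 with BiAux alone and -0.61 with BiAux+IAA. LHCB1.3, a light-harvesting protein gene, had 396, 349 and 291 normalized counts in BiAux+IAA libraries and 182, 197 and 197 in BiAux libraries, against 320, 326 and 252 in IAA libraries and 397, 385 and 419 in mock libraries. LHCB1.3 was lowest with BiAux alone and overlapped mock with BiAux+IAA, where its fold change was -0.21. CHLH, a subunit of magnesium chelatase, had 570, 504 and 568 normalized counts in BiAux+IAA libraries and 516, 649 and 667 in BiAux libraries, against 637, 691 and 539 in IAA libraries and 648, 627 and 573 in mock libraries. CHLH overlapped mock with BiAux alone, with a fold change of -0.02, and stood at -0.17 with BiAux+IAA. The part of shoot RNA in the values of AT1G36240 was not tested.

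The genes beside AT1G36240 on chromosome 1 did not share its pattern. Of the 5 tested genes on each side in locus order, none passed the call rule in any of the 4 comparisons. The nearest tested gene, AT1G36280, whose start lies 25.6 kb away, had 510 ± 44.4 normalized counts in BiAux+IAA libraries, 385 ± 53.4 in BiAux libraries, 466 ± 48.5 in IAA libraries and 452 ± 98.2 in mock libraries (SD, n = 3 each). ACC2 (AT1G36180), a plastid acetyl-CoA carboxylase gene on the other side, had a fold change of -0.45 for BiAux against mock (adjusted p = 1) and was low in BiAux 1 and mock 1. The remaining genes of the 10 lay between -0.21 and 0.03 in that comparison.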

How the data were processed

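Roots of wild type seedlings were profiled by polyA RNA sequencing, 3 libraries a group. The authors trimmed reads, aligned them to TAIR10 with Araport11 genes, counted them per gene with HTSeq and normalized them with edgeR; the paper names STAR and the submitters' processing notes HISAT2. The deposited values are the log2 of a normalized count plus 1. Here the log2 was undone and genes averaging 0.5 CPM or more were kept (19338 of 20814). A pseudocount of 16.3 (0.5 CPM of the median total) was added, and limma 3.58.1 (lmFit, eBayes with trend; R 4.3.3) was fitted on the log2 scale to the 6 libraries of each comparison, with Benjamini-Hochberg adjustment over all tested genes. Because values are normalized, no count model was used, and depth before normalization is not known. The scripts were tested on simulated data. Coding lengths, coordinates and sequences came from RefSeq for TAIR10.1, linked by locus identifier.

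The genes and lists were chosen with earlier results of these data known. Named genes were the RPL30 genes, every called gene, the leading and the smallest paralog of each family, the largest and smallest change of each comparison, the 5 genes most like AT1G36240 and 5 neighbours on each side; a few genes that this rule names are not reported here. Comparisons of coding length classes, and other genes named for their partners, roles or single values, were chosen after their values were seen. In BiAux and mock libraries the same replicate numbers had r = 0.78, 0.41 and 0.58 across genes, which rests on the data and not on a label. BiAux 2 correlated more with mock 3 (r = 0.62), and BiAux 3 stood at r = 0.48 with mock 2. Replicate 1 thus stood apart in both groups, and the numbers did not clearly pair replicates 2 and 3. Alternatives were other pseudocounts, filters, scalings, fits and left-out libraries.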

Additional observations from a re-analysis of the deposited data

Results flagged for a closer look

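AT1G33140 was singled out because the change with BiAux differed between roots with and without IAA, by 0.58 on the log2 scale in limma (adjusted p = 0.426, so it does not pass after adjustment). It was higher in 3 of 3 BiAux+IAA libraries than in any IAA library, and lower in 3 of 3 BiAux libraries than in any mock library. Other ribosomal protein genes also had groups without overlap, among them AT1G66580 and AT5G27700 for BiAux against mock and AT1G61580 for BiAux+IAA against IAA. The share of all tested genes without overlap was not counted. The difference was above 0 for all 56 genes, with a median of 0.29. Reads of AT1G33140 cannot be separated from those of AT1G33120 over a run of 458 bases.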

How the results depend on the processing

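Under other pseudocounts (0.1 and 2 CPM), no filter, a filter at 5 CPM, median-of-ratios scaling with and without ribosomal protein genes, the deposited log2 values, 1 fit over 12 libraries, the replicate block and left-out libraries, no direction of the mean change of the 55 genes reversed. Leaving out 1 library gave 0 to 9 called genes for IAA against mock and 1 to 2 for BiAux+IAA against IAA, the second being AT5G39850; the cause was not tested. The count stayed at 1 for the other comparisons. The mean change of the 55 genes then ranged from -0.22 to -0.05 for BiAux against mock, from -0.38 to -0.23 for IAA against mock, from -0.22 to -0.07 for BiAux+IAA against mock and from 0.11 to 0.26 for BiAux+IAA against IAA. Without both mock 1 and BiAux 1, chosen after seeing the data, it was -0.14 for BiAux against mock, with 17 of the 55 at an unadjusted p under 0.05 (12.1% of all genes, lower). The replicate block gave 2 called genes in place of 1 for the difference of the BiAux changes, AT1G33140 and AT5G39850, and changed no other call. In the comparisons other than BiAux against mock the numbers did not pair the libraries (same-number r from -0.40 to 0.33), and the block left 1 called gene each. Among the 55 it gave 25 genes with an unadjusted p under 0.05 in place of 30 for IAA against mock (7.36% of all genes, lower). It gave 0 in place of 4 for BiAux+IAA against mock (7.39%, lower) and 22 in place of 16 for BiAux+IAA against IAA (7.69%, higher). Median-of-ratios scaling moved the median of all genes by at most 0.05. For BiAux against mock it gave a mean change of the 55 genes of -0.08 in place of -0.13. There 0 of the 55 had an unadjusted p under 0.05, against 2.14% of all genes lower, and 1 was above 0. That number was 38 for IAA against mock (8.89% of all genes, lower), 3 for BiAux+IAA against mock (7.3%, lower) and 21 for BiAux+IAA against IAA (9.31%, higher).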
